A study of Mus musculus with 6 samples.

Results

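Cadherins and protocadherins are cell surface adhesion proteins, and their transcripts were compared between wild-type (WT) and *Mkx*-/- mouse tail tendons. The members were all rows of the count table whose symbol is *Cdh* followed by a number or begins with *Pcdh*. *Cdh5*, the cadherin of endothelial junctions, was left out by that rule and served as a check. Of 44788 symbols in the table, 92 met the rule, and the 60 with at least 10 counts in at least 3 of the 6 libraries were described. All 60 were also among the 14550 genes tested. They comprised 4 of 5 classical type I cadherins, 5 of 12 type II cadherins, 2 of 5 other cadherins, 7 of 9 delta protocadherins, 20 of 22 beta cluster protocadherins and all 22 gamma cluster symbols. None of the 14 alpha cluster symbols and none of 3 other protocadherins reached the minimum.

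Classical cadherins bind the same cadherin on a neighbouring cell in the presence of calcium, and their cytoplasmic tails hold beta-catenin, alpha-catenin and p120-catenin, which tie the junction to actin. Protocadherins lack this catenin-binding tail. The clustered protocadherins lie in tandem arrays, in which alpha and gamma transcripts join a variable first exon to constant exons shared by their array, whereas beta transcripts are single-exon genes. Tendon fibroblasts are joined along and across collagen fibrils by cadherin junctions, of which N-cadherin and cadherin-11 are the known examples.

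The study asked how loss of Mkx, a tendon homeobox transcription factor, alters gene expression in tendons that go on to form bone. RNA was extracted with TRIzol from the tail tendons of C57BL/6 mice and sequenced on an Ion Proton instrument. There were 3 libraries from WT mice and 3 from *Mkx*-/- mice, homozygous knockouts for which the labels name no Cre or other transgene. The labels give an age of 3 weeks for both groups, whereas the study's text gives an older age for its bulk tail tendon samples. Neither the number of mice behind a library nor their separate origin was stated, so p-values measure the spread between these libraries.

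The libraries held 10835070 to 14160301 counts. Normalized read counts are given in CPM, the count relative to a library's total after scaling, and a count of 3 corresponded to 0.211 to 0.294 CPM. That floor covers counting error only. The targeted gene *Mkx* fell, with 1381 to 1825 counts in WT libraries and 491 to 620 in *Mkx*-/- libraries (log2 fold change -1.60, edgeR adjusted p = 0.00183). The deleted stretch of the gene is not given in the sources used here, so reads outside it may remain. WT replicate 3 stood apart, with 301 counts of the Y-linked *Ddx3y* and 1 count of *Xist*, whereas the other 5 libraries had no *Ddx3y* count and 1289 to 1866 counts of *Xist*. The results for *Cdh13*, *Pcdh18*, *Cdh18* and the partner genes that passed are also given without it. The tendon markers *Scx* and *Tnmd* were detected in every library.

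Promoter sequences are shown for the members whose levels were lowest in *Mkx*-/- tendons relative to WT, *Pcdh18*, *Pcdh9*, *Cdh23* and *Cdh18*, so that the proximal sequence of these genes can be compared. Each run is the 250 bases before the RefSeq start on the gene's strand, from RefSeq's table for GRCm38.p6. Capitals mark matches, on either strand, to CANNTG (the E-box), CCAAT or GGGCGG.
Pcdh18: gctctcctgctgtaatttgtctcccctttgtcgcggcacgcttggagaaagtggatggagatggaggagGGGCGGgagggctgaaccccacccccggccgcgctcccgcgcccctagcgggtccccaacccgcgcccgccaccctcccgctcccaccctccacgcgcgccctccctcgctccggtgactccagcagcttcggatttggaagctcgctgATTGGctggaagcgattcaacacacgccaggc
Pcdh9: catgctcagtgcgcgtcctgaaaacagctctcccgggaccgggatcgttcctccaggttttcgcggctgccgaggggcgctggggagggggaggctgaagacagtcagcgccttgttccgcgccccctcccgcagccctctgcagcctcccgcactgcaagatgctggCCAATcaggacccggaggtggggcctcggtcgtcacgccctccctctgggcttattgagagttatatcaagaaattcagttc
Cdh23: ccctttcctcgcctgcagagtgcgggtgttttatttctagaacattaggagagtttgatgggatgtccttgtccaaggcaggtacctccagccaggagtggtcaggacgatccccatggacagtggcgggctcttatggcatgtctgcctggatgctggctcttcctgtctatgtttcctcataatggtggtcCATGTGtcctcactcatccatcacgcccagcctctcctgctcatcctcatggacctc
Cdh18: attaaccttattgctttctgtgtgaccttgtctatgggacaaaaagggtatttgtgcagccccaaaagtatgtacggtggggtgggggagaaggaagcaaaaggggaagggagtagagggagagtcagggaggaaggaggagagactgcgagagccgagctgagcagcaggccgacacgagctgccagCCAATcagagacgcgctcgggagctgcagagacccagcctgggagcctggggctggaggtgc
They lie at chr3:49757317-49757566 on the minus strand for *Pcdh18*, chr14:93890680-93890929 on the minus strand for *Pcdh9*, chr10:60696491-60696740 on the minus strand for *Cdh23* and chr15:23036213-23036462 on the plus strand for *Cdh18*. A CCAAT match lay in 3 of these 4 windows, beginning 32 bases before the start in *Pcdh18* (there on the opposite strand), 82 bases before it in *Pcdh9* and 62 bases before it in *Cdh18*. *Cdh23* held instead a CANNTG match 57 bases before its start, and *Pcdh18* also held GGGCGG at 181 bases. Of 32851 promoter windows of this length, 33.8% held CCAAT, 66.2% CANNTG and 32.7% GGGCGG. Neither TATAAA, found in 12.4% of windows, nor CAGGTG, the E-box form found in 17.2%, occurred in the 4 windows. Their GC content was 68% for *Pcdh18*, 63.6% for *Pcdh9*, 54.4% for *Cdh23* and 58% for *Cdh18*, beside a median of 52.4% over all windows. Of the 92 members, 22 had a promoter in that table, and *Cdh13*, *Cdh1* and *Cdh11* were not among them.

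The first comparison ranked the members by level per length, in CPM per kb of exon, for the 38 members with a gene record of their own. *Cdh11*, a mesenchymal cadherin of connective tissue and bone, and *Cdh13* (T-cadherin), which is held to the membrane by a lipid anchor and binds adiponectin, were far above the rest. *Cdh11* stood at 18 ± 6.05 CPM per kb in WT and 23.9 ± 4.41 in *Mkx*-/- tendons (SD, n = 3 each). *Cdh13* stood at 13.7 ± 1.18 CPM per kb in WT and 23.2 ± 5.10 in *Mkx*-/- tendons, so the order of these neighbours did not exceed their spread in either genotype. In WT the next was *Cdh2* (N-cadherin), at 3.12 ± 0.201 CPM per kb. *Pcdh18* at 2.97 ± 0.817, *Cdh19* at 2.71 ± 0.712, *Pcdhb17* at 2.54 ± 0.608 and *Pcdh9* at 2.46 ± 0.0513 CPM per kb followed in WT, and these neighbours lay within their spread of one another. In *Mkx*-/- tendons the third to sixth levels were those of *Cdh19* (3.8 ± 1.19), *Cdh1* (3.49 ± 1.2), *Pcdhb17* (3.39 ± 0.208) and *Cdh2* (3.13 ± 0.683 CPM per kb), again within their spread. *Pcdh18*, *Pcdh9* and *Cdh18* stood at 1.5, 1.17 and 1 CPM per kb in the knockouts. The 12 highest of these 38 members are drawn in the plot of levels per kilobase, and gamma cluster symbols were not ranked.

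**Figure D1:**
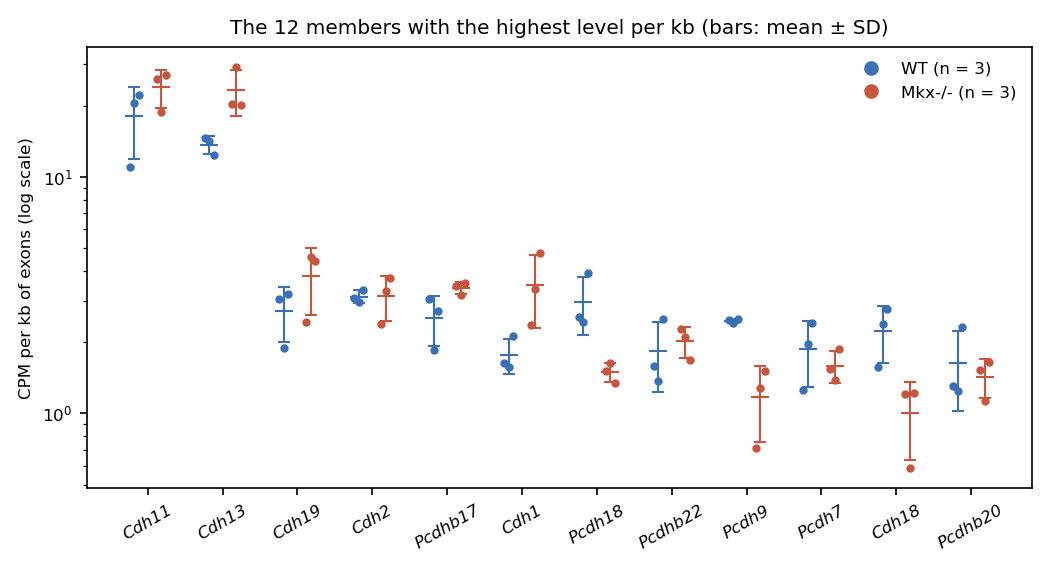
Level per length, in CPM per kb of exon on a log axis, of the 12 highest among the 38 members with a gene record of their own. Gamma cluster symbols, *Pcdhgc3* included, have no such record and were not ranked. Members are ordered by their mean over the libraries, with a point for each WT (blue) and *Mkx*-/- (red) library and bars for the mean and SD. *Cdh11* and *Cdh13* sit well above the other 10, and the points of *Pcdh18*, *Pcdh9* and *Cdh18* are lower in *Mkx*-/- libraries than in WT.

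The main comparison was of *Mkx*-/- with WT tendons, by edgeR's quasi-likelihood test with Benjamini-Hochberg adjustment over all 14550 genes. *Cdh13* rose and *Pcdh18* fell, and these were the 2 of 60 members with an adjusted p under 0.05. That is 3.33% of the members, where 5.44% of all tested genes passed (3.18% higher and 2.26% lower in *Mkx*-/-). With the study's further requirement of a log2 fold change beyond 1 in size, no member was called upregulated or downregulated, where 1.89% and 1.33% of all genes were. At an unadjusted p under 0.05 there were 8 members, 3 higher and 5 lower, against 22.6% of all genes. DESeq2 called 6 members at an adjusted p under 0.05, or 10% of the members, where it called 8.5% of all its tested genes. The 6 were *Cdh1*, *Cdh13*, *Cdh18*, *Cdh23*, *Pcdh18* and *Pcdh9*. DESeq2 called 3 members downregulated and none upregulated, where it called 1.74% and 2.46% of its genes. The groups did not overlap in 13 members (21.7%), against 28.2% of all genes.

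Across the 60 members the median log2 fold change was -0.02, with 26 positive and 34 negative values, beside 0.00 over all genes, of which 49.5% were positive. The 22 gamma cluster symbols held 18 of the negative values and 4 of the positive ones. Their counts ran close together within a library. The 60 values, and the shares of members given above, may therefore not rest on separate measurements. The classical type I and type II cadherins had median log2 fold changes of 0.39 (4 members) and 0.43 (5 members), the delta protocadherins -0.23 (7), the beta cluster 0.04 (20) and the gamma cluster -0.05 (22). Scaling by library size alone raised the median of all genes to 0.25, and the delta and gamma medians then became positive (0.04 and 0.21). RLE and upper-quartile scaling left the sign of each of these medians as it was. The 4 described members on chromosome 8, *Cdh1*, *Cdh3*, *Cdh11* and *Cdh13*, all had positive fold changes, and of these *Cdh13* passed the test. In bulk tissue, fewer cells of a type and less RNA per cell cannot be told apart.

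**Figure D2:**
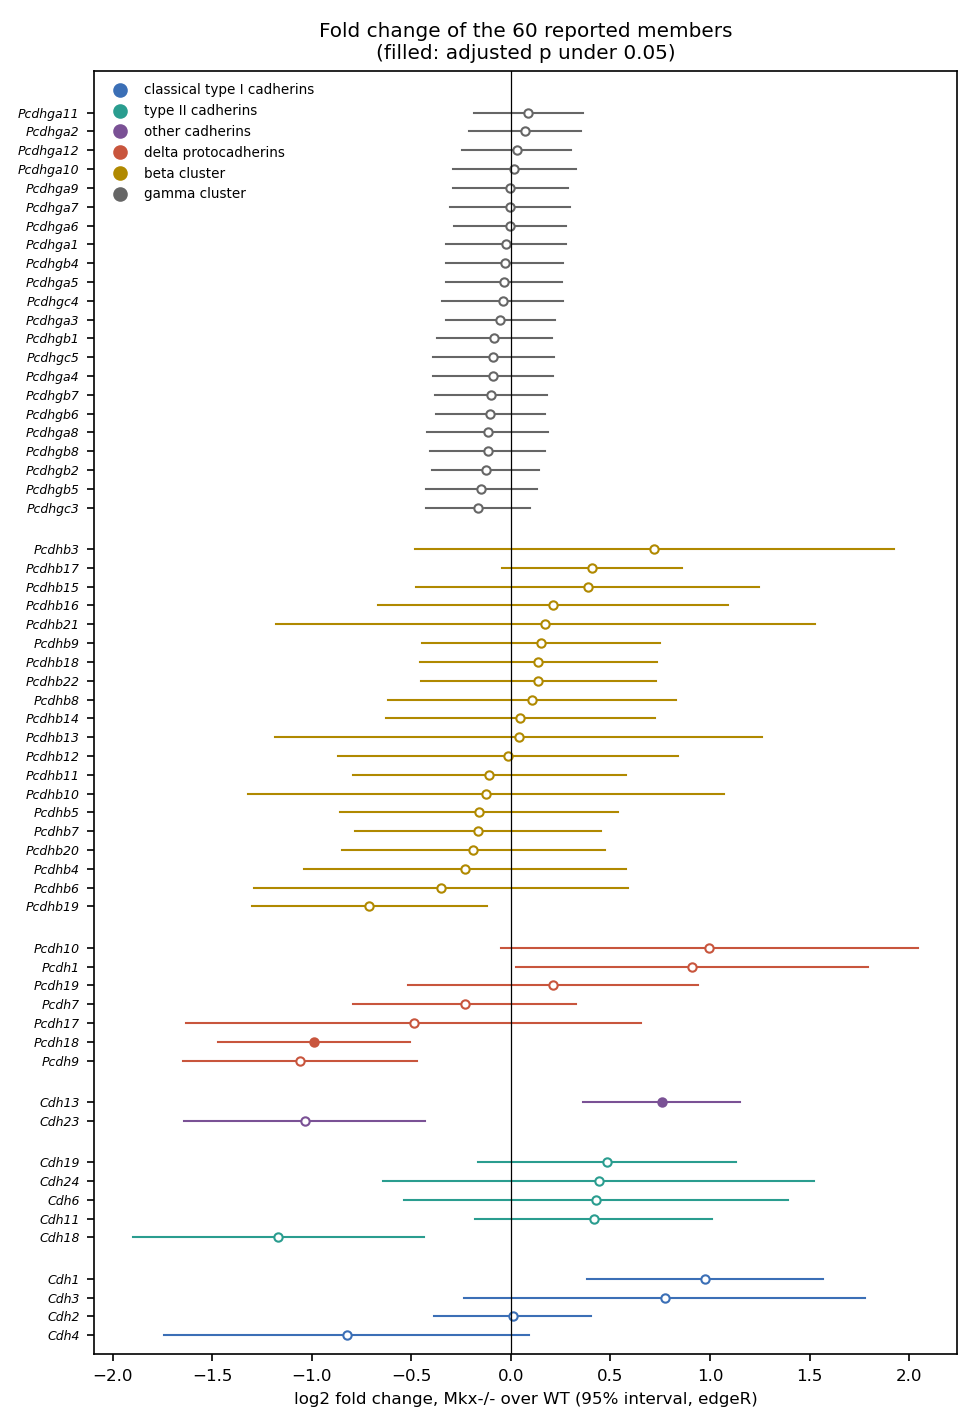
Log2 fold change of *Mkx*-/- over WT for the 60 members, ordered by family, with 95% intervals from edgeR's fit, coloured by family and filled where the adjusted p was under 0.05. *Cdh13*, above 0, and *Pcdh18*, below 0, are the filled points, and the gamma cluster forms a narrow band between -0.16 and 0.09.

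*Cdh13* was counted 2068, 1615 and 1726 times in WT and 2485, 4621 and 2835 times in *Mkx*-/- libraries, or 163, 159 and 138 CPM against 228, 325 and 225 CPM. Every knockout library lay above every WT library, and *Mkx*-/- replicate 2 was the highest. The means were 153 ± 13.2 and 259 ± 56.9 CPM (SD, n = 3 each), a fold of 1.69. The log2 fold change was 0.76 (SE 0.17, 95% interval 0.36 to 1.15), with an edgeR adjusted p of 0.0431 and a DESeq2 adjusted p of 0.00189. The gene spans 1041.2 kb at chr8:120807633-121848821 on the plus strand of mm9. It remained higher without each library in turn, with a log2 fold change of 0.67 and an adjusted p of 0.151 without WT replicate 3 and 0.56 and 0.111 without *Mkx*-/- replicate 2. Its edgeR call was also lost without WT replicate 2 (adjusted p = 0.126), *Mkx*-/- replicate 1 (0.0671) or *Mkx*-/- replicate 3 (0.0715), and was kept without WT replicate 1.

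*Pcdh18*, a non-clustered delta protocadherin of embryonic mesenchyme and nervous system, was counted 168, 128 and 252 times in WT and 85, 120 and 88 times in *Mkx*-/- libraries. The normalized values were 13.2, 12.6 and 20.2 CPM in WT and 7.79, 8.43 and 6.98 CPM in *Mkx*-/-. All 3 knockout libraries lay close together and below all WT libraries, among which WT replicate 3 was the highest. The means were 15.3 ± 4.22 and 7.73 ± 0.729 CPM (SD, n = 3 each), and the log2 fold change was -0.99 (SE 0.21, 95% interval -1.47 to -0.51, edgeR adjusted p = 0.0356, DESeq2 adjusted p = 0.00358). The gene lies at chr3:49547218-49561238 on the minus strand of mm9. Without WT replicate 3 the log2 fold change was -0.75 (adjusted p = 0.0882). The edgeR call was also lost without WT replicate 2 (0.0624), *Mkx*-/- replicate 1 (0.08), 2 (0.0856) or 3 (0.12), and with library size alone as the scaling (0.0627).

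A further 4 members passed in DESeq2 and missed the edgeR threshold, *Pcdh9*, *Cdh23* and *Cdh18* with lower values and *Cdh1* with higher values in *Mkx*-/-. *Pcdh9*, a delta protocadherin best known from neurons, stood at 9.22, 8.93 and 9.29 CPM in WT and at 2.66, 4.78 and 5.63 CPM in *Mkx*-/- libraries. The WT libraries were nearly equal, and all knockout libraries lay below them, with counts of 91 to 117 against 29 to 71. Its log2 fold change was -1.06 (SE 0.26, edgeR adjusted p = 0.0528, DESeq2 adjusted p = 0.00918).

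*Cdh23*, the long cadherin of hair cell tip links, stood at 5.36, 4.52 and 3.85 CPM in WT and at 2.75, 1.69 and 2.30 CPM in *Mkx*-/- libraries. The groups did not overlap, at 46 to 68 against 24 to 30 counts. The log2 fold change was -1.03 (SE 0.26, edgeR adjusted p = 0.0620, DESeq2 adjusted p = 0.0480). *Cdh18*, a type II cadherin mostly described in brain, stood at 7.17, 10.9 and 12.6 CPM in WT and at 5.50, 2.67 and 5.55 CPM in *Mkx*-/- libraries. WT replicate 1 was the nearest to the knockouts, of which replicate 2 was the lowest. Its log2 fold change of -1.17 was the most negative of the 60 (SE 0.32, edgeR adjusted p = 0.0731, DESeq2 adjusted p = 0.0136), and it was -0.88 (edgeR adjusted p = 0.153) without *Mkx*-/- replicate 2 and -1.004 (0.186) without WT replicate 3. It passed without WT replicate 1 (-1.38, edgeR adjusted p = 0.029) and in no other fit that left out 1 library.

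*Cdh1* (E-cadherin), which joins epithelial cells and is also present in the non-compact myelin of Schwann cells, stood at 7.48, 7.17 and 9.69 CPM in WT and at 10.8, 15.3 and 21.7 CPM in *Mkx*-/- libraries. All knockout libraries were higher, and *Mkx*-/- replicate 3 was the highest. The log2 fold change was 0.97 (SE 0.26, edgeR adjusted p = 0.0698, DESeq2 adjusted p = 0.0154), and it was 0.69 (edgeR adjusted p = 0.194) without *Mkx*-/- replicate 3. It passed without *Mkx*-/- replicate 1 (1.16, edgeR adjusted p = 0.0349) and in no other fit that left out 1 library. It lies at chr8:109127251-109194146 on the plus strand of mm9. These values by library are drawn in the plot of members with an unadjusted p under 0.05.

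**Figure D3:**
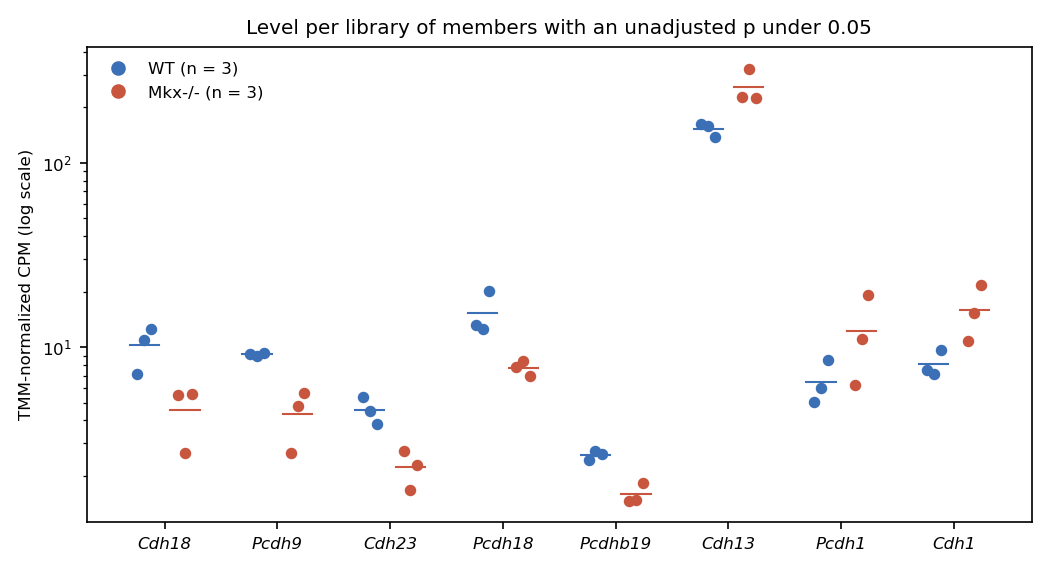
Normalized counts in CPM, on a log axis, of the 8 members with an unadjusted p under 0.05, with a point for each WT (blue) and *Mkx*-/- (red) library and a line at each group mean. The knockout points lie above all WT points for *Cdh13* and *Cdh1* and below all of them for *Cdh18*, *Pcdh9*, *Cdh23*, *Pcdh18* and *Pcdhb19*, while those of *Pcdh1* overlap.

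The cadherins known from tendon fibroblast junctions did not pass the test. *Cdh2* stood at 24.7, 23.8 and 26.9 CPM in WT and at 19.2, 26.5 and 30.04 CPM in *Mkx*-/- libraries, a log2 fold change of 0.01 with a 95% interval of -0.38 to 0.40. The groups overlapped, and its sign depended on the tool. *Cdh11* stood at 46.6, 86.7 and 93.9 CPM in WT and at 110, 79.6 and 114 CPM in *Mkx*-/- libraries and WT replicate 1 was the lowest, with overlap between the groups. Its log2 fold change was 0.42 (95% interval -0.18 to 1.01, edgeR adjusted p = 0.394), and 0.16 without WT replicate 1.

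Of the other classical cadherins, *Cdh4* (R-cadherin) had a value of -0.82 on the log2 scale (edgeR adjusted p = 0.270) and *Cdh3* (P-cadherin) one of 0.77 (0.346), both on 9 to 50 counts per library. *Cdh4* shares exonic sequence with the record *Gm10711* on the same strand. *Cdh19*, a type II cadherin of the Schwann cell lineage, stood at 9.30, 5.79 and 9.77 CPM in WT and at 7.42, 13.98 and 13.4 CPM in *Mkx*-/- libraries (log2 fold change 0.48, edgeR adjusted p = 0.360, and 0.27 without WT replicate 2). The groups overlapped because *Mkx*-/- replicate 1 lay among the WT libraries.

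Among the remaining delta protocadherins, *Pcdh1* stood at 5.04, 5.99 and 8.49 CPM in WT and at 6.23, 11.1 and 19.3 CPM in *Mkx*-/- libraries. The spread within the knockouts was wide, the groups overlapped, and the log2 fold change of 0.91 had an edgeR adjusted p of 0.208. Without *Mkx*-/- replicate 3 it was 0.42 (edgeR adjusted p = 0.576). *Pcdh7* stood at 7.80, 12.2 and 14.9 CPM in WT and at 9.53, 8.57 and 11.6 CPM in *Mkx*-/- libraries. Its groups overlapped (log2 fold change -0.23, edgeR adjusted p = 0.627). *Pcdh10* had the most positive log2 fold change of the 60 members, 0.996, on 4 to 24 counts (edgeR adjusted p = 0.244).

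The 20 beta cluster members were counted 3 to 147 times each, and none passed the test. Their log2 fold changes ran from -0.71 to 0.72, with 11 positive and 9 negative, and standard errors of 0.20 to 0.59. *Pcdhb17* was the highest of them, at 9.93, 6.09 and 8.89 CPM in WT and 11.3, 10.3 and 11.7 CPM in *Mkx*-/- libraries. Its groups did not overlap, by a narrow margin (log2 fold change 0.41, edgeR adjusted p = 0.266, and 0.22 without WT replicate 2). *Pcdhb19*, which lies beyond *Pcdhb18* from *Pcdhb17*, stood at 2.44, 2.75 and 2.64 CPM in WT and at 1.47, 1.48 and 1.82 CPM in *Mkx*-/- libraries. Its groups did not overlap either, and it differed in the opposite direction, with a log2 fold change of -0.71 (unadjusted p = 0.0236, edgeR adjusted p = 0.147) on 16 to 33 counts. *Pcdhb18*, between them, had overlapping groups and a log2 fold change of 0.14. *Pcdhb22* at 4.88, 4.22 and 7.69 CPM in WT and 6.96, 6.46 and 5.15 CPM in *Mkx*-/- had a log2 fold change of 0.14. *Pcdhb20* at 4.65, 4.42 and 8.25 CPM in WT and 5.40, 4.01 and 5.87 CPM in *Mkx*-/- had one of -0.19. In both, WT replicate 3 was the highest library and the groups overlapped. Beta genes are near-identical in places, so reads could have been divided between paralogs by the counting, which was not described.

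The 22 gamma cluster symbols had counts in every library, but their counts within a library ran close together. In each library the lowest gamma symbol (*Pcdhgb4*, *Pcdhgc4* or *Pcdhgc5*) had 124 to 158 counts, and the 21 symbols other than *Pcdhgc3* had 1 to 2.04 times that count, with a median of 1.23. GENCODE's mm9 gamma record has 3 exons, of 2119 bases in all, that at least 9 of its 10 transcripts share, and reads from such exons cannot be assigned to 1 symbol. *Pcdhgc3* alone stood out, at 13 to 15.2 times the lowest symbol. It was counted 2165, 1698 and 2138 times in WT and 1787, 2054 and 1840 times in *Mkx*-/- libraries, or 171, 167 and 171 CPM against 164, 144 and 146 CPM. Every knockout library lay below every WT library, by a small margin, and the log2 fold change of -0.16 (95% interval -0.43 to 0.10) had an edgeR adjusted p of 0.446. None of the 22 gamma symbols passed the test. Of these, 18 had negative fold changes, and all 22 became positive with library size alone as the scaling, so no direction is given.

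The alpha cluster had very low counts. In WT replicate 3 every one of the 14 alpha symbols had at least 1 count and 11 had exactly 1, while in each of the other 5 libraries 11 to 13 of the 14 had none. GENCODE's alpha record likewise has 3 exons, of 2860 bases, held by at least 9 of 10 transcripts, and whether reads were shared between alpha symbols was not tested. The alpha symbol nearest to the minimum was *Pcdhac2*, with 9, 10 and 7 counts in WT and 5, 0 and 1 in *Mkx*-/- libraries.

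**Figure D4:**
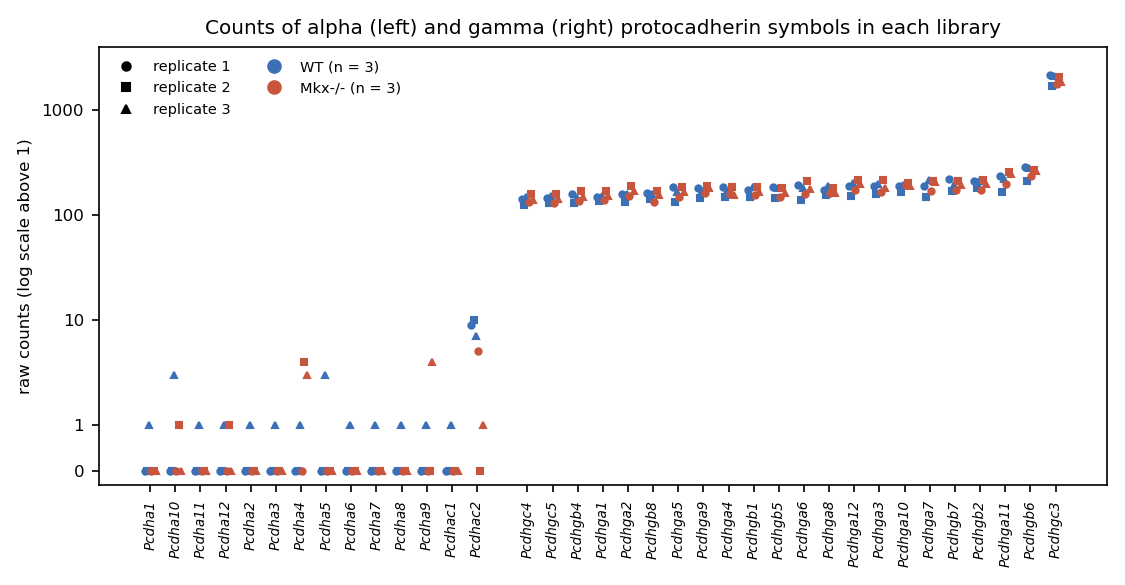
Raw counts of every alpha (left) and gamma (right) cluster symbol in each library, on an axis that is logarithmic above 1, with colour for genotype and marker shape for replicate number. Alpha symbols lie at or near 0, with the triangles of WT replicate 3 in a row at 1, and gamma symbols form a tight band from 124 to 290 counts with *Pcdhgc3* alone above it.

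Of the 32 members under the minimum, *Cdh7*, *Cdh8*, *Cdh12*, *Cdh16*, *Cdh22* and *Pcdhb1* had no count in any library. *Cdh15* (M-cadherin), which joins muscle satellite cells and myoblasts, had 0, 0 and 1 counts in WT and 2, 5 and 3 in *Mkx*-/- libraries. Just inside the minimum lay *Pcdhb21* with 13, 4 and 4 counts in WT and 10, 11 and 4 in *Mkx*-/-, and *Pcdh17* with 13, 6 and 12 against 7, 4 and 12. Just outside it, next to *Pcdhac2*, lay *Cdh10* with 2, 4 and 4 against 3, 8 and 13 counts, *Cdh20* with 1, 12 and 5 against 1, 1 and 2, and *Cdh26* with 10, 0 and 6 against 4, 2 and 3. The members under the minimum were not tested.

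The genes that work with cadherins were compared next, in 7 lists of 89 genes, of which 61 were tested. By edgeR 5 rose, or 8.2% beside the 5.44% of all genes, and none fell. DESeq2 called 10. Of its further calls *Fat3* (log2 fold change -1.18, DESeq2 adjusted p = 0.0258) and *Stag1* (-0.51, 0.0411) were lower, and *Vcl*, *Dchs1* and *Clstn1* were higher. The median log2 fold change of the 61 was 0.09. *Fjx1*, whose fly relative phosphorylates the cadherin domains of Fat and Dachsous, stood at 2.68, 3.73 and 5.69 CPM in WT and at 12.3, 11.9 and 13.8 CPM in *Mkx*-/- libraries (log2 fold change 1.65, edgeR adjusted p = 0.0121). *Snai2*, which encodes Slug, a repressor of *Cdh1*, stood at 2.05, 2.75 and 3.28 CPM in WT and at 5.68, 8.43 and 7.37 CPM in *Mkx*-/- libraries (1.41, 0.0194). Both genes were higher in all 3 knockout libraries than in any WT library. *Perp*, a membrane protein of desmosomes, stood at 1.42, 2.16 and 3.04 CPM against 4.67, 7.73 and 10.8 CPM (1.81, 0.0323). *Pvrl1* (nectin-1), an immunoglobulin-like adhesion receptor of adherens junctions, stood at 3.62, 4.51 and 5.29 CPM against 9.62, 7.80 and 9.75 CPM (1.01, 0.0279). *Cdhr4*, a cadherin-related gene, rose from 7, 7 and 9 counts in WT to 20, 27 and 35 in *Mkx*-/- libraries (1.72, 0.0274). The groups did not overlap in any of the 5. The number of partner genes that passed was 0 without WT replicate 2, 2 without WT replicate 3, and 1 without *Mkx*-/- replicate 2 or *Mkx*-/- replicate 3. Those fits called 1.78%, 1.64%, 2.23% and 2.36% of all tested genes, in that order. Without WT replicate 3, *Fjx1* (edgeR adjusted p = 0.0112) and *Snai2* (0.0472) passed, and *Perp* (0.0611), *Pvrl1* (0.059) and *Cdhr4* (0.0972) did not.

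By list, and by edgeR's test, the 13 tested catenins and adherens junction partners included none that passed, with a median log2 fold change of 0.15. *Ctnnb1* (beta-catenin) stood at 298, 268 and 289 CPM in WT and at 328, 338 and 322 CPM in *Mkx*-/- libraries, which is 0.21 higher on the log2 scale (edgeR adjusted p = 0.339). Desmosomal genes had 1 of 5 that rose and a median of 1.23, atypical and calsyntenin family cadherins 2 of 10 and a median of 0.24, and nectins 1 of 5 and a median of 0.35. The transcription factors of cadherin switching had 1 of 8 and a median of 0.02. *Snai1*, *Zeb1*, *Zeb2*, *Twist1* and *Tcf3* of that list had log2 fold changes between -0.09 and 0.20. *Twist2* (-0.75, edgeR adjusted p = 0.0725, DESeq2 adjusted p = 0.0545) and *Tcf4* (-0.25, edgeR adjusted p = 0.271) were lower, without overlap between the groups. Proteases that shed cadherins had none of 10 and a median of -0.02. The 10 tested genes of protocadherin cluster architecture, such as *Ctcf* (log2 fold change -0.20, edgeR adjusted p = 0.367), had none that passed. All 10 had negative values, with a median of -0.30, which was -0.06 with library size alone as the scaling, when 3 were positive.

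Markers of other cell types differed between the same libraries, and their part in the results was not tested. The summed level of 14 Schwann cell markers was 8290 to 10900 CPM in WT and 12800, 21000 and 23800 CPM in *Mkx*-/- libraries, of which 1 gene passed the test. Among the knockouts, *Cdh1* and *Cdh19* were lowest in replicate 1, as this list was. So were *Cdh2*, *Pcdh1* and *Pcdh9*, the last of which was lower in *Mkx*-/- than in WT. The 17 endothelial markers summed to 93.1 to 115 CPM in WT and 160, 174 and 246 CPM in *Mkx*-/-, with 2 that rose, and *Cdh5* stood at 4.88, 8.44 and 6.81 against 8.89, 10.5 and 22.4 CPM (log2 fold change 1.06, edgeR adjusted p = 0.130). *Cdh13*, which endothelial and smooth muscle cells also make, was highest in *Mkx*-/- replicate 2. The pericyte and smooth muscle markers summed to 342 to 405 CPM in WT and 317, 351 and 1090 CPM in *Mkx*-/-, with none of 9 past the test, so the level was raised in replicate 3 alone.

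Of 22 skeletal muscle markers 6 rose, from summed levels of 112 to 495 CPM in WT to 3500, 1690 and 696 CPM in *Mkx*-/-. Satellite cell and myoblast markers summed to 13.7 to 25.6 and 10.9 to 20.9 CPM, with neither of 2 tested past the test. Most of that sum was *Musk*, at 24.7, 13 and 16.3 CPM in WT and 12.9, 18.7 and 8.96 CPM in *Mkx*-/-. *Myod1* was counted 0, 1 and 0 times in WT and 6, 5 and 1 times in *Mkx*-/-. *Myf6* was counted 1, 0 and 1 against 13, 9 and 2 times, and neither of these was tested. Keratinocyte and epithelial markers summed to 13.2 to 28.3 CPM in WT and 22.6 to 27.9 CPM in *Mkx*-/-, with none of 5 past the test. Most of the WT sum was *Trp63*, at 10.6, 17.1 and 19 CPM in WT and 9.98, 8.57 and 4.44 CPM in *Mkx*-/- (log2 fold change -1.02, edgeR adjusted p = 0.102, DESeq2 adjusted p = 0.0322). *Krt5* was counted 0, 28 and 9 times in WT and 76, 78 and 75 times in *Mkx*-/- (edgeR adjusted p = 0.099), and *Krt10* had a log2 fold change of 0.14. Macrophage and leukocyte markers summed to 470 to 516 against 306 to 368 CPM, with 2 of 11 lower. Cartilage markers summed to 1300 to 1800 against 1880 to 2560 CPM, with 2 of 7 higher. Osteoblast markers summed to 2.99 to 5.29 against 6.32 to 6.82 CPM and neuron markers to 1.89 to 2.75 against 2.93 to 4.84 CPM, with none of 2 tested past the test in either list. Tendon markers summed to 382000 to 525000 CPM in WT and 245000 to 340000 CPM in *Mkx*-/-. Most of that sum was *Col1a1* and *Col1a2*, at 131000 and 224000 CPM in WT replicate 1. By edgeR's test *Mkx* fell, *Thbs4* rose (log2 fold change 1.27) and none of the other 8 genes passed. Of those 8, DESeq2 called *Col1a2* (DESeq2 adjusted p = 4.04e-07), *Egr1* (0.00601), *Scx* (0.0145) and *Col1a1* (0.0491), all lower in *Mkx*-/-. *Tnmd*, *Fmod*, *Dcn* and *Kera* had log2 fold changes of -0.02, 0.11, -0.03 and -0.42. *Matn1* of the cartilage list had no count in any library, and every other marker listed in the table had at least 1.

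**Figure D5:**
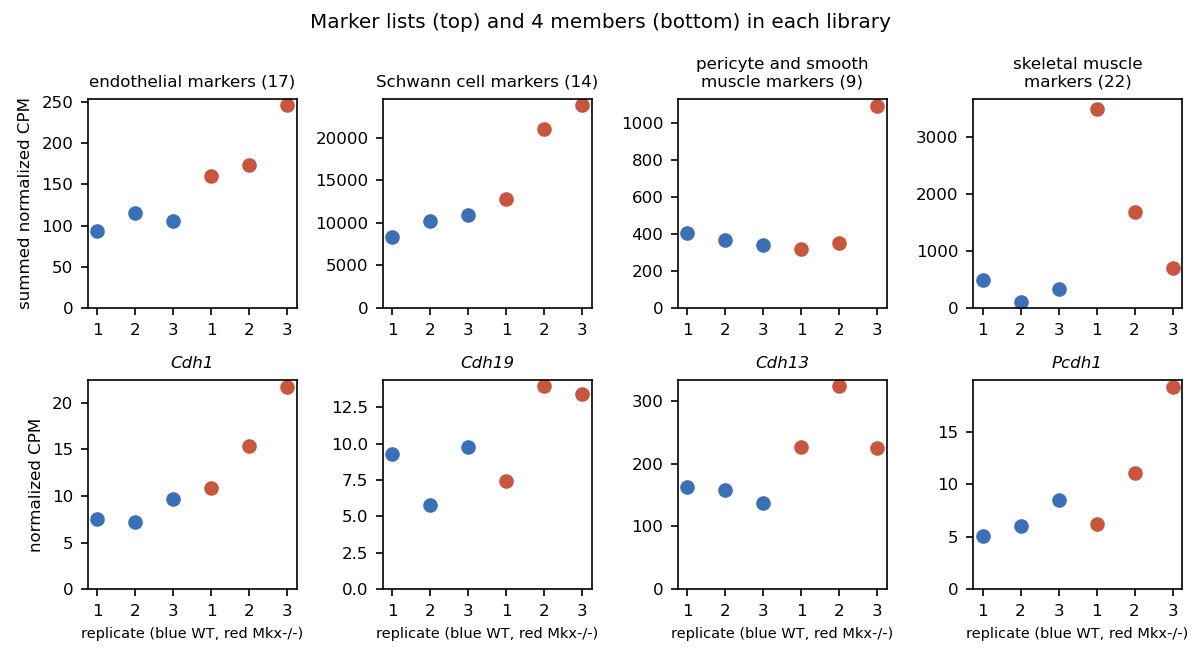
Summed normalized CPM of the endothelial, Schwann cell, pericyte and smooth muscle, and skeletal muscle marker lists (top) and normalized CPM of *Cdh1*, *Cdh19*, *Cdh13* and *Pcdh1* (bottom) in each WT (blue) and *Mkx*-/- (red) library, on axes from 0. *Cdh1* and *Pcdh1* are highest in *Mkx*-/- replicate 3, as are the first 3 marker sums, and *Cdh13* is highest in *Mkx*-/- replicate 2.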

How the data were processed

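Tail tendon RNA-seq libraries, 3 WT and 3 *Mkx*-/-, were analysed, and no other experiment of the study was. Per gene symbol, the authors deposited read counts without normalization, made after alignment to mm9 with MapSplice. The counting program, its annotation and its use of strand are not given in the sources used here, so reads of overlapping or paralogous genes may be shared. All 6 columns matched samples by label, and 0 columns were left unused.

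From these counts, CPM and fold changes were computed with edgeR 4.0.16 (R 4.3.3), by TMM, filterByExpr and a quasi-likelihood fit on genotype without robust estimation, with Benjamini-Hochberg adjustment over all 14550 genes. Log2 fold changes carry a prior count of 0.125. Upregulated and downregulated follow the study's thresholds (adjusted p below 0.05, log2 fold change beyond 1 in size). DESeq2 1.42.0, other scalings and filters, a replicate block and leaving out each library were alternatives. The test was checked on simulated counts. The labels number the replicates without saying that the numbers pair the libraries, and the main fit used no pairing. Gene positions and exon lengths come from GENCODE on mm9.

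Values per library are given for members past the adjusted p and for the 12 highest per kb, and fold changes for those with an unadjusted p under 0.05. Members and lists were chosen with earlier results of these data known. Other members and partner or marker genes with values, such as *Cdh3*, *Cdh4*, *Pcdh10*, *Pcdhgc3*, *Ctnnb1*, *Ctcf*, *Trp63*, *Krt5* and *Krt10*, were picked after their values were seen.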

Additional observations from a re-analysis of the deposited data

How the results depend on the processing

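The number of members past an adjusted p of 0.05 was 2, where 5.44% of all genes passed. It was 6 in DESeq2 (10% of members, beside 8.5% of all genes). With a filter of 1 count in any library it was 6 (10% beside 6.07%). It was 0 to 3 without a library, where 1.64% to 6.59% of all genes passed. With the replicate block it was 0, where 2.98% of all genes passed. Same-number WT and *Mkx*-/- libraries had correlations of 0.0261, -0.21 and 0.297 in their deviations from the group mean. Other pairs ran from -0.392 to 0.398. With 3 libraries per group such deviations are tied to each other, so these values cannot tell whether replicate numbers mark pairs. The 0 upregulated members became 2 with library size only and 0 to 1 without a library. The 0 downregulated members became 3 in DESeq2, 1 with RLE scaling, 3 with the filter of 1 count, 1 with the robust fit and 0 to 2 without a library. The 5 partner genes became 10 in DESeq2, 11 with library size only (where 10.7% of all genes passed) and 9 with the filter of 1 count. They became 3 with the replicate block and 0 to 5 without a library. The cause was not tested. *Cdh13* and *Pcdh18* kept their direction in all 14 alternatives, with adjusted p of 0.00189 to 0.151 and 0.00358 to 0.12. Of values that did not pass any test, *Cdh2* reversed to -0.0008 in DESeq2, -0.0122 with the replicate block and ran from -0.1339 to 0.1464 without a library. *Pcdh7* reversed to 0.0423 and *Pcdhb20* to 0.0718 with library size only. Without a library, *Pcdhb20* ran from -0.3603 to 0.1459 and *Pcdhb22* from -0.0370 to 0.4243. Members with counts near 10 had large counting errors, and 3 libraries per group limit every call.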
